A study of Mus musculus with 8 samples.

Results

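R9del cells are mouse embryonic stem cells (mESCs) in which the Rad9 gene was deleted (genotype Rad9-/-), and the question addressed here is how their transcriptome differed between culture in space and culture on the ground. The libraries were chosen by their labels, and R9del accounted for 4 of the 8 RNA-seq libraries of the series. Space_R9del_D1 and Space_R9del_D5 came from R9del cells kept in space for 1 day or 5 days, and Ground_R9del_D1 and Ground_R9del_D5 from R9del cells kept on the ground for the same times. The wild-type cells (R9wt) gave the other 4 libraries, with the same locations and days. The space cultures of both genotypes and both days flew in the same payload. The ground cells grew in the same type of payload. Cultures of the different days were kept in device groups of their own and were seeded with different cell numbers, so the day cannot be told apart from the device group. Launch, flight and return were met only by the space cultures and cannot be told apart from each other. Gene counts totalled 65678502 in Ground_R9del_D1, 72077524 in Ground_R9del_D5, 67640365 in Space_R9del_D1 and 58238440 in Space_R9del_D5.

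Each condition had 1 library, so each space library was set against the ground library of the same day. Levels are given in CPM (counts scaled to the library total with edgeR's TMM factors). A gene with no count could still have had up to 3, which is 0.0418 to 0.0516 CPM on that scale. This limit covers counting error only. The p-values measure only how far the D1 and D5 differences disagree, moderated across genes, and not the spread between repeated cultures. In bulk RNA, fewer cells of a type and less RNA per cell cannot be told apart.

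Rad9, with Rad1 and Hus1, forms a ring-shaped clamp that is loaded onto damaged DNA and helps to activate the checkpoint kinase ATR. Cells without it are hypersensitive to DNA damage. Embryonic stem cells divide fast, keep a pluripotency network led by Pou5f1, Sox2 and Nanog, and can give rise to primitive endoderm, trophoblast-like cells and the germ layers.

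The deleted gene was examined in every library. Rad9a (ENSMUSG00000024824) had 1556 counts in Ground_R9del_D1, 2095 in Ground_R9del_D5, 1461 in Space_R9del_D1 and 1606 in Space_R9del_D5. The R9wt libraries held 8031 counts in Ground_R9wt_D1, 7689 in Ground_R9wt_D5, 5980 in Space_R9wt_D1 and 4290 in Space_R9wt_D5. All 4 R9del libraries lay below all 4 R9wt libraries, and the reads that remained in R9del were not separated into deleted and retained exons. The location of the R9del cells made little difference to Rad9a, with 24.0 and 29.2 CPM on the ground and 21.2 and 27.6 CPM in space, for D1 and D5 in turn. The labelled cell type was then set against its markers. The 10 pluripotency markers summed on the ground to 5636 CPM at D1 and 6072 CPM at D5, and in space to 5392 and 6354 CPM, and Pou5f1 was the most abundant. The 7 tested markers of fibroblast feeder cells summed to 29.9 and 38.6 CPM on the ground and 36.1 and 55.9 CPM in space, led by Thy1.

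In R9del cells, far more genes were lower in space than higher. Of 21002 genes tested, 1941 (9.24%) were called lower and 823 (3.92%) higher by edgeR's quasi-likelihood test (2-fold or more, unadjusted p under 0.05), so 2.36 genes were called lower for each gene called higher. A gene that missed either limit is said not to pass the test. Mcm3 (1.34-fold), Ldha (1.35-fold) and Klf6 (1.49-fold) missed only the fold limit, with edgeR unadjusted p-values of 0.041, 0.025 and 0.029 in turn. At a Benjamini-Hochberg adjusted p under 0.05 the same test called 1087 genes lower (5.18%) and 189 higher (0.9%). These adjusted counts rested on all libraries. They became 381 lower and 18 higher without Ground_R9del_D1, 272 and 9 without Ground_R9del_D5, 584 and 79 without Space_R9del_D1, and 488 and 37 without Space_R9del_D5, in fits that could no longer hold a term for the day. In a fit of all 8 libraries they were 279 and 4.

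Agreement between the days was counted from the ratios alone, with no test. At both days, 1675 genes (7.98%) were at least 2-fold lower in space and 623 genes (2.97%) at least 2-fold higher. Of the genes at least 2-fold lower at D1, numbering 2752, 60.9% were so at both days, and of the 3345 at D5, 50.1%. Agreement was less frequent upward. Only 28.8% of the 2165 genes at least 2-fold higher at D1, and 30.5% of the 2042 at D5, were so at both days. The difference between the directions widened with the size of the change. At least 4-fold, 587 genes were lower and 72 higher at both days, at least 8-fold 187 and 12, and at least 16-fold 53 and 2. Opposite changes were rarer, with 225 genes at least 2-fold higher at D1 and 2-fold lower at D5, and 128 genes the other way round. Of the genes lower at both days 1509 were also called at the unadjusted threshold, and of those higher at both days 472. Where the mean level was 10 CPM or more, 730 were lower and 97 higher at both days.

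**Figure D1:**
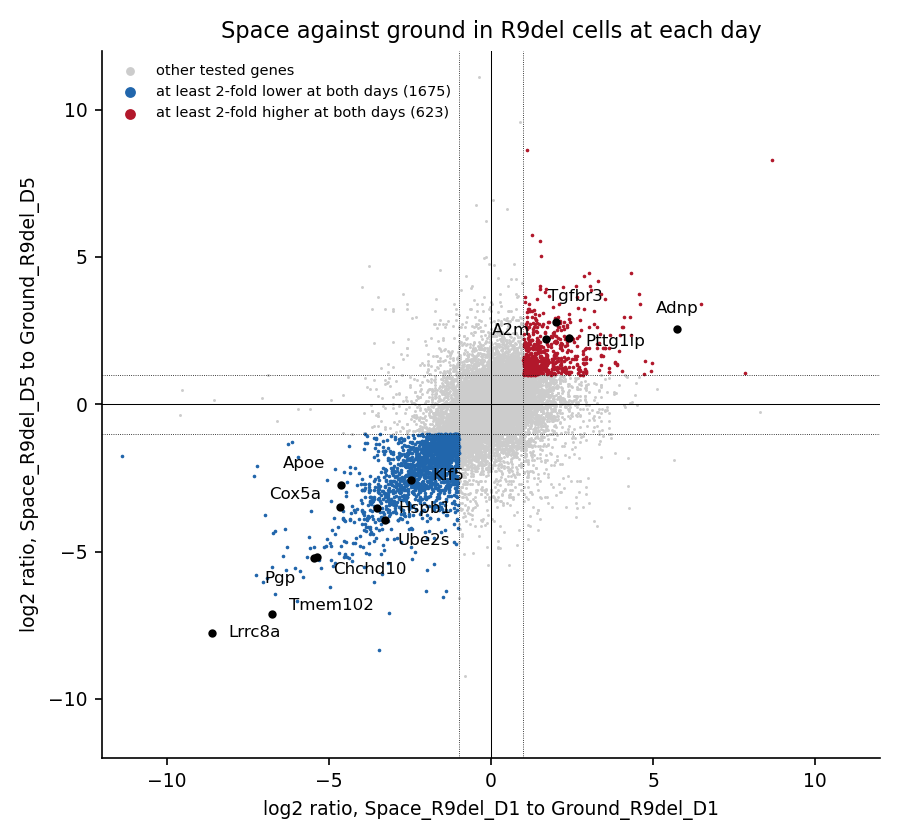
Log2 ratio of space to ground CPM in R9del cells at D1 (horizontal axis) and at D5 (vertical axis), 1 point for each of the 21002 tested genes. Blue points are the 1675 genes at least 2-fold lower at both days, red points the 623 genes at least 2-fold higher, and black points are named genes.

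Among genes with a mean log2 CPM of 4 or more, the deepest losses left nearly nothing. Lrrc8a, which encodes the essential subunit of the volume-regulated anion channel, was at 80.6 CPM in Ground_R9del_D1 and 66.9 CPM in Ground_R9del_D5, and at 0.174 CPM in Space_R9del_D1 and 0.275 CPM in Space_R9del_D5. Its log2 fold change was -8.36 (standard error 0.38, edgeR adjusted p = 0.0014), and 23.6% of its exon bases overlap another gene. Tmem102 fell from 38.1 and 61.5 CPM to 0.319 and 0.413 CPM (log2 fold change -7.05). Pgp, the phosphatase that removes phosphoglycolate, was at 113 CPM and 131 CPM on the ground at D1 and D5 and at 2.51 and 3.51 CPM in space (log2 fold change -5.35, standard error 0.24, edgeR adjusted p = 0.0014). For these genes each space library lay far below each ground library at both days. Chchd10, a protein of the mitochondrial intermembrane space, went from 282 and 383 CPM on the ground to 6.72 and 10.4 CPM in space (log2 fold change -5.30). Zfp444, a zinc finger protein, had log2 ratios of -5.30 at D1 and -5.29 at D5, and Tbcc, a cofactor of tubulin folding, of -5.59 and -4.88. Sap30, a subunit of the Sin3 histone deacetylase complex, and Med30, a subunit of Mediator, had log2 fold changes of -4.50 and -4.42. The 10 genes of this kind with the largest fold change included Hist1h2ad and Hist1h2ah, near-identical copies among which the reads could have been divided in more than 1 way.

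Among genes that were also picked for qRT-PCR or by name, Apoe and Ube2s fell at both days. Apoe, the lipid carrier of many lipoproteins, was at 1768 CPM in Ground_R9del_D1 and 1122 CPM in Ground_R9del_D5, against 70.9 CPM in Space_R9del_D1 and 169 CPM in Space_R9del_D5 (log2 fold change -3.68, standard error 0.47, edgeR adjusted p = 0.0079). Ube2s, the enzyme that extends ubiquitin chains for the anaphase-promoting complex, was at 401 and 581 CPM on the ground and 41.8 and 38.2 CPM in space, for D1 and D5. Of its 50-base stretches 97.4% occur again elsewhere in the genome, so its level is uncertain. Lefty1 was called lower, but its log2 ratio was -1.75 at D1 and -0.38 at D5. The call was lost without Ground_R9del_D1 (log2 fold change -0.88), Ground_R9del_D5 (-0.85) or Space_R9del_D1 (-0.35). It was also lost in a fit of all 8 libraries (-1.04) and with no term for the day (-0.89). Mef2d, Fgf1, Neu1, Plac1, Fabp3, Myc, Stac2 and Wnt8a did not pass the test. Of these, Fabp3 followed the day and not the location, with 57.6 CPM in Ground_R9del_D1, 48.6 CPM in Space_R9del_D1, 188 CPM in Ground_R9del_D5 and 232 CPM in Space_R9del_D5. Neu1 did the same, with 29.87 and 29.99 CPM at D1 and 50.8 and 49.4 CPM at D5, ground before space. Myc was at 71.7 and 30.4 CPM on the ground and 81.0 and 67.8 CPM in space. Both Mef2d and Wnt8a stayed under 4 CPM in the 4 libraries.

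The genes that rose did so by less. Pttg1ip, a binding partner of securin, was at 23.2 CPM in Ground_R9del_D1 and 26.4 CPM in Ground_R9del_D5, and at 123 CPM in Space_R9del_D1 and 127 CPM in Space_R9del_D5. Its log2 fold change of 2.34 (standard error 0.20, edgeR adjusted p = 0.0025) was nearly the same at both days. Tgfbr3, the co-receptor betaglycan of the TGF-beta family, rose from 6.35 and 6.72 CPM to 25.5 and 46.4 CPM (log2 fold change 2.40). Grb10, an imprinted adaptor that restrains insulin receptor signalling, rose from 14.0 and 10.1 CPM to 48.8 and 48.1 CPM. The protease inhibitor A2m was at 18.4 and 27.8 CPM on the ground and 59.8 and 128 CPM in space, and Spry4, a feedback inhibitor of ERK signalling, at 135 and 75.1 CPM on the ground and 335 and 393 CPM in space. In these genes no space library overlapped a ground library. Fen1, the flap endonuclease of DNA replication and base excision repair, rose from 59.0 and 68.7 CPM to 228 and 219 CPM (log2 fold change 1.81). It shares 84.2% of its exon bases with another gene, so the reads could belong to either. The same applies to Adnp, a chromatin-bound homeobox protein with the largest log2 fold change (4.02, standard error 0.79) among called genes at least 2-fold higher at both days with a mean log2 CPM of 4 or more, of whose exon bases 82.1% overlap another gene. Adnp was at 0.463 and 9.45 CPM on the ground and at 26.4 and 55.3 CPM in space, for D1 and D5 in turn. Its call was lost without Space_R9del_D5 (2.41) and in a fit of all 8 libraries (4.11). Galnt6, which starts O-linked glycosylation, and Plekhg1 had log2 fold changes of 1.77 each. The call of Plekhg1 was lost without Space_R9del_D5 (0.89) or Ground_R9del_D1 (1.81).

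**Figure D2:**
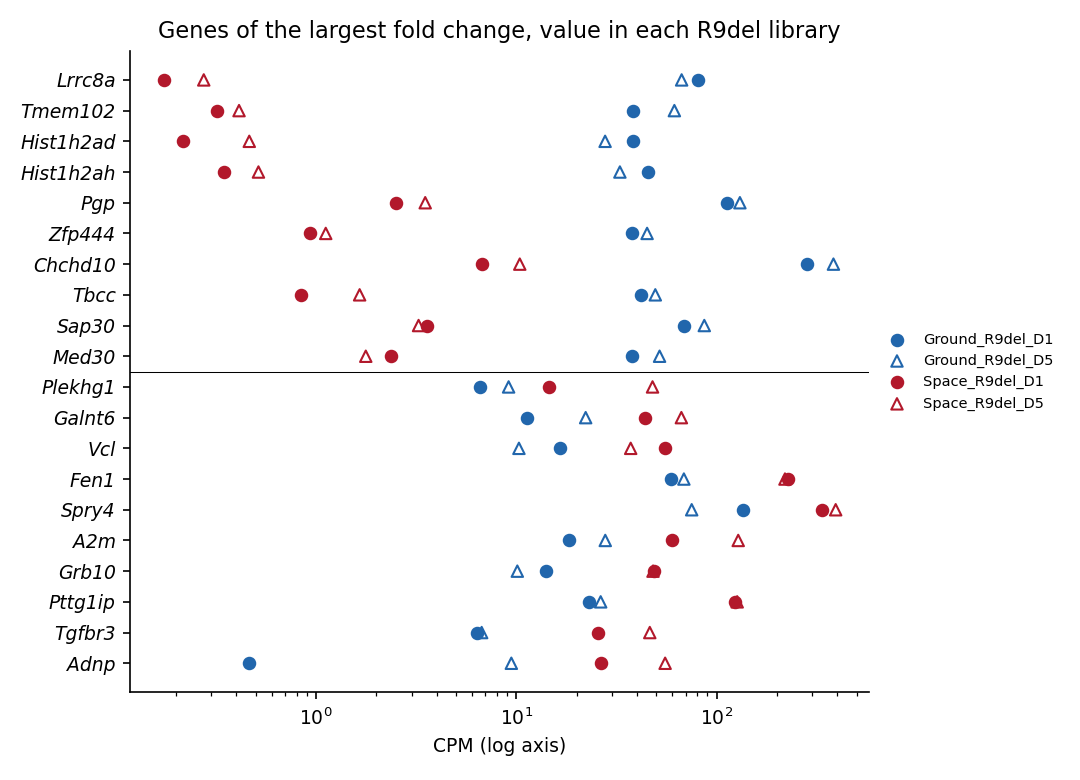
CPM on a log axis in each of the 4 R9del libraries, for 10 genes called lower (upper block) and 10 called higher (lower block). These have the largest fold change among called genes at least 2-fold changed at both days with a mean log2 CPM of 4 or more. Circles are D1, triangles D5, blue is ground and red is space, and within each gene the space and ground libraries do not overlap.

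As a group, the genes called lower differed from the rest in a feature of sequence that played no part in choosing them. For each gene the most GC-rich 200 bases of its exons were found in the mm9 genome, which was possible for 84.9% of the tested genes. The median of this value was 75% in genes called lower, 65% in genes called higher and 67% over all tested genes, and 78.0% of the genes called lower held a stretch of at least 70% GC, against 39.4% of all tested genes. In genes whose richest stretch held 75 to 80% GC, 726 of 2479 (29.3%) were called lower and 63 (2.54%) higher. At 60 to 65% GC, 54 of 3426 (1.58%) were called lower and 187 (5.46%) higher, so the direction of the excess was turned round there. Under 60% GC lower calls were again the more frequent, with 225 of 3781 genes (5.95%) called lower and 149 (3.94%) higher. Above 80% GC the share called lower was smaller again, at 11.8% of 1514 genes. The median log2 ratio in the 75 to 80% class was -0.41 at D1 and -0.50 at D5, and in the R9wt libraries it was -0.58 and -0.54. The GC content of whole exons showed both ends of the range, with 36.1% called lower among 756 genes of at least 60% GC and 26.0% among 866 genes under 40% GC. Exon length moved with the response too. The median log2 fold change was -0.14 in 2044 genes under 1000 bases and 0.23 in 1570 genes of at least 8000 bases. The part of GC content or length in the calls was not tested. Each location had libraries of its own, so a difference in the handling of RNA or libraries cannot be told apart from the location, in either genotype.

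Single genes do not all follow the medians. On the 200-base measure the richest stretch held 73.5% GC in Tmem102, 75% in Pgp and 73% in Zfp444, which fell, and 72% in Tgfbr3, 66.5% in Pttg1ip and 72% in Grb10, which rose. Lrrc8a, which fell, held 68.5%, between the medians of all tested genes and of genes called lower. Adnp, which rose, held 85.5%. Like Tgfbr3 and Grb10 it lay above the 67% median of all tested genes, against the direction of the medians. The stretches below are the most GC-rich 90 coding bases within an exon for the 3 genes with the largest fall and the 3 with the largest rise in the plot of CPM by library that have little overlap with other genes and few copies, read on the coding strand of mm9. Runs of at least 6 bases of only G and C are in capitals. Those of Tmem102 (chr11:69617429-69617518, minus strand), Pgp (chr17:24607556-24607645, plus strand) and Zfp444 (chr7:6141264-6141353, plus strand) hold 5 such runs each and 77.8 to 80% GC.
Tmem102: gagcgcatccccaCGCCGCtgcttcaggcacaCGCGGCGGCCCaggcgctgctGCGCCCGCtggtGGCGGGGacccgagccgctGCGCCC
Pgp: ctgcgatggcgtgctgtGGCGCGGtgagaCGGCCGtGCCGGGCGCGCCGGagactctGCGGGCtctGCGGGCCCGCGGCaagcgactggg
Zfp444: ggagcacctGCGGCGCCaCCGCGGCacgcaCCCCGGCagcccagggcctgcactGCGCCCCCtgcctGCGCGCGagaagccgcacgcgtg
Those of Tgfbr3 (chr5:107538661-107538750, minus strand), Pttg1ip (chr10:77044568-77044657, plus strand) and Grb10 (chr11:11867535-11867624, minus strand), which rose, hold 0, 3 and 1 such runs and 65.6 to 67.8% GC.
Tgfbr3: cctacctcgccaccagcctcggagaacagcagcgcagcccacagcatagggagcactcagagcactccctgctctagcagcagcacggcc
Pttg1ip: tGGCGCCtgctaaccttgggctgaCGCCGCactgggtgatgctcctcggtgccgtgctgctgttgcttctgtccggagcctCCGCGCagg
Grb10: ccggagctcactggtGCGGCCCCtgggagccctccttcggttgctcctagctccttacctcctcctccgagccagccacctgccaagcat
Over all coding genes the median of this 90-base value was 75.6% in the 1488 called lower with such a stretch, 66.7% in the 631 called higher and 66.7% in the 15728 tested.

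**Figure D3:**
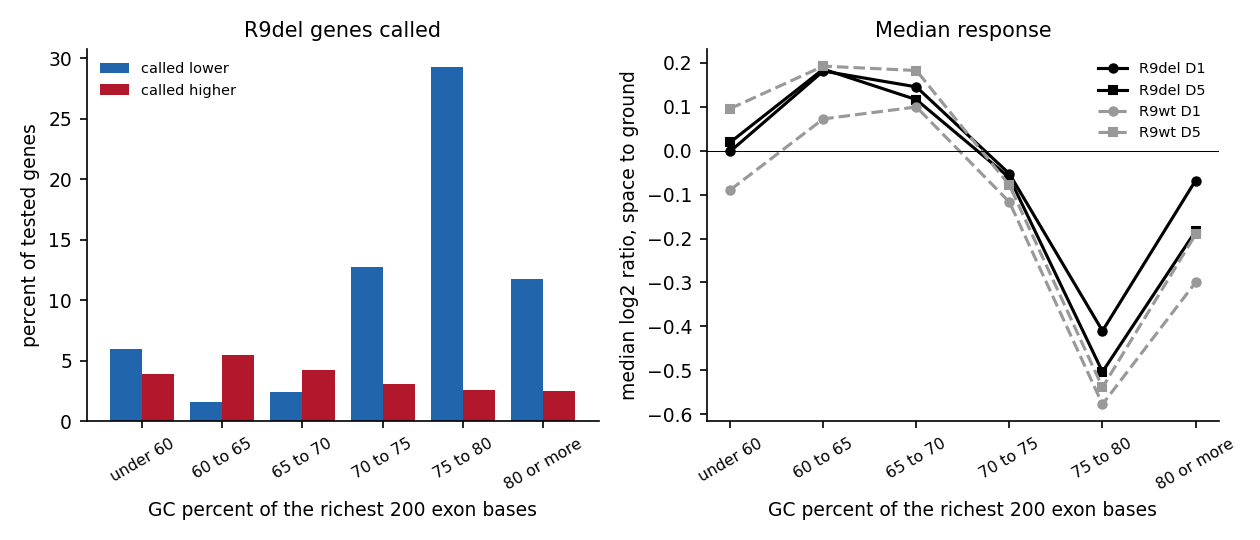
Genes grouped by the GC percent of the richest 200 exon bases. The left panel gives the percent of tested genes called lower (blue) and higher (red) in R9del cells, with 29.3% called lower at 75 to 80% GC, and the right panel the median log2 ratio of space to ground for R9del (black) and R9wt (grey) at D1 (circles) and D5 (squares), lowest in the same class.

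Histone calls differed by class. Replication-dependent histones, which package new DNA in S phase, had 14 of 48 tested members called lower (29.2%, against 9.24% of all tested genes) and 0 higher. Of these, 11 were among the 14 H2A genes and 3 among the 5 H3 genes, while 0 of 14 H2B, 0 of 9 H4 and 0 of 6 H1 genes were called in either direction. The H2A genes had a median log2 fold change of -4.99 and the H2B genes of 0.0026. Hist1h2an was at 29.5 and 26.3 CPM on the ground and 0.261 and 0.275 CPM in space, and Hist1h2aj at 33.4 and 27.6 CPM against 0.276 and 0.568 CPM, for D1 and D5. Hist1h2bc was at 16.7 and 11.8 CPM on the ground and 17.3 and 13.7 CPM in space. The linker histone gene Hist1h1c stayed under 9 CPM in all 4 libraries. Of the 50-base stretches of Hist1h2an 85.8% occur elsewhere in the genome, and of Hist1h2aj 92.5%, so the H2A genes are not independent measurements. The median richest GC window was 74.8% in the H2A genes and 66.5% in the H2B genes. H2afx, which encodes the H2A variant that is phosphorylated at broken DNA, fell from 376 and 374 CPM to 23.7 and 31.3 CPM (log2 fold change -3.78, standard error 0.22, edgeR adjusted p = 0.0019).

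The list shown as cyclins, CDKs and inhibitors also holds Cdc25 phosphatases and genes of the Rb and E2f families, and 8 of its 31 tested members were called lower (25.8%, against 9.24% of all tested genes) and 1 higher (3.23%, against 3.92%). Ccne1, the cyclin that starts S phase, was at 561 and 292 CPM on the ground and 116 and 89.3 CPM in space, and Ccna2 at 273 and 227 CPM against 70.9 and 51.7 CPM. Ccne2 had log2 ratios of -1.11 and -1.12 at D1 and D5, but its call was lost without Ground_R9del_D1 (-0.51) or Space_R9del_D5 (-0.70). E2f4, a repressor of cell cycle genes, fell from 517 and 499 CPM to 118 and 96.2 CPM. Mitotic Ccnb1, at 605 and 546 CPM on the ground and 797 and 699 CPM in space, and Cdk4 did not pass the test. The member called higher was Ccnd2, chosen after its values were seen, and its call was lost without Ground_R9del_D5 (0.72) or Space_R9del_D5 (0.95). In DNA replication 3 of 43 members were called lower (6.98%, against 9.24%) and 1 higher (2.33%, against 3.92%). Cdt1, which licenses origins, fell from 187 and 142 CPM to 42.5 and 30.1 CPM, and Rfc5, a subunit of the clamp loader, from 350 and 333 CPM to 118 and 124 CPM. Orc4 was also called lower, but not without Ground_R9del_D5 (-0.97) or Space_R9del_D5 (-0.77). The helicase subunit Mcm4 was called higher, from 206 and 201 CPM to 476 and 384 CPM, but not without Space_R9del_D1 (0.92). Mcm3 and Mcm5 did not pass the test. Without Ground_R9del_D1 the replication genes called higher were 4, and the cyclin-list genes called higher were 2 without Ground_R9del_D1 or Space_R9del_D1.

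Of the ubiquitin-conjugating E2 enzymes 9 of 33 were called lower (27.3%, against 9.24% of all tested genes) and 1 higher (3.03%, against 3.92%), and all 10 were at least 2-fold changed at both days. Ube2d2a fell from 257.5 and 254.7 CPM to 41.9 and 40.7 CPM, Ube2d3 from 694 and 678 CPM to 291 and 218 CPM, and Ube2v2 from 183 and 219 CPM to 51.4 and 39.4 CPM. These are enzymes or cofactors of ubiquitin chain building, and 53.6% of the 50-base stretches of Ube2d2a, 27.9% of Ube2d3 and 34.7% of Ube2v2 recur in the genome. The member called higher was Ube2h, chosen after its values were seen, at 33.6 and 53.3 CPM on the ground and 103 and 131 CPM in space, with 43.9% of its 50-base stretches recurring. Ube2c did not pass the test. Without Space_R9del_D5 2 members were called higher. The median log2 fold change of the list was -0.31, against -0.0030 over all tested genes. The median richest window of the list was 77% GC. Of all genes whose richest stretch held 75 to 80% GC, 29.3% were called lower, near the 27.3% of this list. The part of GC content in these calls was not tested. Of 31 proteasome subunits only Psmd3 was called, as lower (3.23%, against 9.24%), at 371 and 307 CPM on the ground and 111 and 159 CPM in space. Psmd7 and Psmb6 did not pass the test.

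The share of reads on mitochondrial genes was smaller in space at both days. Reads on mitochondrial genes made up 3.39% of the counts in Ground_R9del_D1, 2.46% in Ground_R9del_D5, 1.82% in Space_R9del_D1 and 1.46% in Space_R9del_D5. Of the 13 protein genes 6 were called lower (46.2%, against 9.24% of all tested genes) and 0 higher, with a median log2 fold change of -0.92. Of 21 tested mitochondrial tRNA genes 18 were called lower, and of the 2 ribosomal RNA genes 0, by edgeR's test at the unadjusted threshold. The gene of a complex I subunit, mt-Nd2, was at 1157 and 714 CPM on the ground and 210 and 136 CPM in space (log2 fold change -2.43, standard error 0.18, edgeR adjusted p = 0.0021). The ATP synthase genes mt-Atp6 and mt-Atp8 had log2 fold changes of -1.73 and -2.30, and all of their 50-base stretches recur elsewhere in the genome. The call of mt-Nd4 (-1.06) was lost without Ground_R9del_D1 (-0.64) or Space_R9del_D5 (-0.87). The other called members, mt-Nd3 (-2.34) and mt-Nd6 (-1.82), were chosen after their values were seen, and 99% of the 50-base stretches of mt-Nd3 recur elsewhere. The most abundant gene, mt-Co1, was at 12212 and 9255 CPM on the ground and 8182 and 7660 CPM in space and was not called, and neither was mt-Cytb. In contrast to the nuclear genes that fell, the mitochondrial protein genes have a median richest window of 44% GC. Without Space_R9del_D1 the protein genes called lower were 10.

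Of the nuclear genes of oxidative phosphorylation 5 of 75 were called lower (6.67%, against 9.24% of all tested genes) and 0 higher. Of these, Cox5a, Uqcrfs1 and Cyc1 fell the most. Cox5a, a subunit of cytochrome c oxidase, was at 314 and 296 CPM on the ground and 12.4 and 26.3 CPM in space (log2 fold change -4.08), with 38.7% of its exon bases overlapping another gene. Uqcrfs1 and Cyc1, catalytic subunits of complex III, fell from 245 and 249 CPM to 19.01 and 20 CPM and from 569 and 521 CPM to 68.3 and 108 CPM. Ndufab1 (-1.38), and Uqcrb (-1.05), which was chosen after its values were seen, lost their calls without Space_R9del_D1 (-0.94 and -0.89). Atp5b, at 2280 and 2096 CPM on the ground and 2112 and 2413 CPM in space, and Atp5a1 did not pass the test. The nuclear genes called lower were 3 without Space_R9del_D1. In glycolysis Hk2, which traps glucose in the cell, was the only called member of 17 (5.88% higher, against 3.92%), at 159 and 186 CPM on the ground and 434 and 672 CPM in space (log2 fold change 1.65, standard error 0.19, edgeR adjusted p = 0.0059). Pkm and Ldha, the abundant enzymes at the end of the pathway, did not pass the test, and without Ground_R9del_D5 the glycolysis genes called higher were 3. Among 24 hypoxia response genes Hk2 and P4ha2 were called higher (8.33%, against 3.92% of all tested genes) and Ero1l and Hif1a lower (8.33%, against 9.24%). Hif1a, the oxygen-regulated transcription factor, was at 50.5 and 40.7 CPM on the ground and 26.6 and 16.9 CPM in space, and its call was lost without Ground_R9del_D1 (-0.87) or Space_R9del_D5 (-0.77). The call of P4ha2 (1.11) was lost without Ground_R9del_D1 (0.86) or Space_R9del_D5 (0.37) and with no term for the day (1.19). Pgk1 did not pass the test. Without Space_R9del_D5 the hypoxia genes called lower were 1.

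Of 23 tested pluripotency genes 3 were called lower (13.0%, against 9.24% of all tested genes) and 1 higher (4.35%, against 3.92%), with a median log2 fold change of -0.0552. Pou5f1 was at 1629 and 1477 CPM on the ground and 1410 and 1582 CPM in space and was not called, and neither was Dppa5a. Nanog, chosen after its values were seen, was at 282 and 346 CPM on the ground and 443 and 666 CPM in space and was not called either. Klf5 fell from 679 and 677 CPM to 123 and 113 CPM (log2 fold change -2.52, standard error 0.18, edgeR adjusted p = 0.0021). Sox2 was at 200 and 232 CPM on the ground and 97.8 and 118 CPM in space. Its log2 fold change of -1.004 stood at the threshold, and the call was lost without Ground_R9del_D5 (-0.88) or Space_R9del_D1 (-0.87) and with DESeq2's size factors (-0.98). The Sox2 call was also lost with library size alone (-0.979), DESeq2's Wald test (-0.984), all 8 libraries (-0.982) and thinned libraries (-0.9993). Nr0b1 (-1.05) lost its call without Ground_R9del_D1 (-0.54) and in the fit of all 8 libraries (-1.03). Esrrb was called higher, from 36.0 and 40.8 CPM to 76.2 and 106 CPM, but not without Space_R9del_D5 (0.99). The pluripotency genes called higher were 2 without Ground_R9del_D5 and 3 without Ground_R9del_D1 or Space_R9del_D1. Among 12 formative and primed genes 1 was called (8.33% lower, against 9.24%), Foxd3, which fell from 14.4 and 9.41 CPM to 3.02 and 2.29 CPM, while Dnmt3l and Dnmt3b did not pass the test. Without Ground_R9del_D5 2 of these were called lower, and without Ground_R9del_D1 1 was called higher.

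Many genes of the primitive endoderm list were called higher, mainly through D5. Of 15 tested members 8 were called higher (53.3%) and 2 lower (13.3%), where 3.92% and 9.24% of all genes were, and the median log2 ratio was 0.39 at D1 and 1.77 at D5. Lama1, a laminin chain of the basement membrane this tissue lays down, was at 130 and 126 CPM on the ground and at 204 and 567 CPM in space, for D1 and D5 in turn. Lamb1 was at 139 and 122 CPM on the ground and 242 and 417 CPM in space, and the collagen gene Col4a1 at 64.5 and 115 CPM against 93.6 and 392 CPM. The endocytic adaptor Dab2 rose from 16.6 and 35.8 CPM to 33.1 and 142 CPM. In each of these the Space_R9del_D5 library was the highest. Without it the calls of Lama1 (0.67), Lamb1 (0.89), Col4a1 (0.064) and Dab2 (0.34) were lost, those of Col4a1 and Dab2 also without Ground_R9del_D1 (1.12 and 1.33), and that of Col4a1 without Ground_R9del_D5 (1.93). Of the members named after their values were seen, Hnf4a was called and at least 2-fold higher at both days (log2 ratios 1.13 and 1.82), while Sox7, Pdgfra and Cubn were higher at D5 above all (1.87, 2.40 and 2.46, against 0.81, 0.74 and 0.20 at D1). Without Space_R9del_D5 these calls were lost too, with log2 fold changes of 0.97 for Hnf4a, 0.996 for Sox7 and 0.87 for Pdgfra, and the direction of Cubn was reversed, at -0.057. Without Ground_R9del_D5 the calls of Pdgfra (1.60) and Cubn (2.15) were lost, and that of Cubn also without Ground_R9del_D1 (1.71). In the fit of all 8 libraries the calls of Sox7 (1.365), Pdgfra (1.59), Dab2 (1.52) and Cubn (1.355) were lost. With no term for the day those of Col4a1 (1.44) and Cubn (1.88) were lost. The members called higher were 0 without Space_R9del_D5 and 5 without Ground_R9del_D1 or Ground_R9del_D5, and those called lower were 1 when Ground_R9del_D1, Ground_R9del_D5 or Space_R9del_D1 was left out. Sparc, the most abundant member, was not called, at 721 and 637 CPM on the ground and 679 and 1688 CPM in space, and neither was Col4a2. Of the defining transcription factors, Gata4, Gata6 and Foxa2, chosen after their values were seen, were not called. Gata4 was at 5.90 and 9.92 CPM on the ground and 4.11 and 16.2 CPM in space, Gata6 at 4.69 and 4.64 CPM against 4.28 and 14.7 CPM, and Foxa2 at 1.07 and 2.08 CPM against 0.319 and 1.69 CPM. These were lower in space than on the ground at D1, and Gata4 and Gata6 higher at D5. Sox17 fell, from 2.50 and 4.95 CPM to 0.145 and 0.121 CPM. Amn, chosen after its values were seen, was also called lower, but not without Ground_R9del_D1 (-2.18), Ground_R9del_D5 (-1.17) or Space_R9del_D1 (-0.91). Nor was Amn called with no term for the day (-1.80). The 9 defining markers summed on the ground to 72.5 CPM at D1 and 111 CPM at D5, and in space to 90 and 373 CPM, with Dab2 the most abundant, and had a median log2 ratio of -0.13 at D1 and 1.66 at D5. Whether this came from a larger share of such cells was not tested.

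In the lists of the other lineages 0 members were called higher by edgeR's test at the unadjusted threshold, and DESeq2's Wald test called 1, in the early neural list. The summed level still differed, and that of the trophoblast list was 839 and 1506 CPM on the ground and 1340 and 1012 CPM in space, for D1 and D5. In the primitive streak and mesendoderm list 4 of 14 were called lower (28.6%, against 9.24% of all tested genes) and 0 higher. Besides Lefty1 and Sox17 these were low-level genes. Gsc had 10 and 20 counts on the ground and 0 in both space libraries, so it was at least 4.55-fold lower, taking 3 counts in each space library as the floor. Mesp1 had 39 and 17 counts on the ground and 0 and 4 in space, and its call was lost without Ground_R9del_D1 (-2.74) or Space_R9del_D1 (-2.57). The Mesp1 call was also lost with no filter (-3.665) and in the fit of all 8 libraries (-3.673). Nodal did not pass the test, and neither did Lefty2, which was at 110 and 191 CPM on the ground and 45.3 and 402 CPM in space. The streak genes called lower were 7 without Space_R9del_D5 and 2 without Space_R9del_D1, where 1 was called higher. Of 10 trophoblast genes Cdx2, at 1.76 and 0.836 CPM on the ground and 0.160 and 0.069 CPM in space, and Ascl2, at 19.98 and 16.44 CPM against 9.01 and 6.87 CPM, were called lower (20%) and 0 higher, while Peg10 and Krt18 did not pass the test. Without Ground_R9del_D1 4 were called lower, and without Space_R9del_D5 1 was called higher. Of 8 early neural genes 1 was called (12.5%), Hes5, a target of Notch, with 37 and 84 counts on the ground and 0 in both space libraries, at least 18.3-fold lower by the same floor. Of the exon bases of Hes5 31.8% overlap another gene. Tubb3 and Nes did not pass the test. Without Space_R9del_D5 2 were called lower, and without Ground_R9del_D1 1 was called higher. Of 7 fibroblast genes only Acta2, smooth muscle actin, was called, as lower (14.3%), and the call was lost without Ground_R9del_D5 (-0.47), Space_R9del_D5 (-1.74) or Space_R9del_D1 (-1.37). Thy1 and Col1a1 did not pass the test. Without Ground_R9del_D5 1 member was called higher. Of 17 Hox genes 0 were called in either direction at the unadjusted threshold of edgeR's test, and Hoxc13, the most abundant, stayed under 4 CPM. Without Space_R9del_D1 3 Hox genes were called lower, without Space_R9del_D5 1, and without Ground_R9del_D5 1 was called higher.

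Immediate early genes moved in both directions. Of 17 members 5 were called higher (29.4%, against 3.92% of all tested genes) and 4 lower (23.5%, against 9.24%). Junb, a component of the AP-1 factor, fell from 191 and 169 CPM to 32.01 and 20.6 CPM, and Ier2 from 542 and 413 CPM to 60.9 and 76.1 CPM. Dusp1, a phosphatase that turns off MAP kinases, fell from 168 and 208 CPM to 19.9 and 11.1 CPM (log2 fold change -3.65, standard error 0.33, edgeR adjusted p = 0.0028). Jun, named after its values were seen, had a log2 fold change of -2.42. The members that rose were the orphan receptor gene Nr4a1 and, named after their values were seen, Fos, Fosb, Egr1 and Egr2. Egr2 was at 0.803 and 2.37 CPM on the ground and 16.4 and 18.8 CPM in space (log2 fold change 3.64). Fos was at 10.7 and 18.3 CPM on the ground and 49.8 and 24.8 CPM in space, and its call was lost without Ground_R9del_D1 (1.06) or Space_R9del_D1 (0.77). Nr4a1 was at 128 and 96.7 CPM on the ground and 284 and 180 CPM in space, and its call was lost without Ground_R9del_D5 (0.87) or Space_R9del_D1 (0.68). Those of Egr1 and Fosb were lost without Space_R9del_D1 (0.87) and without Ground_R9del_D1 (1.47) in turn. In the fit of all 8 libraries the calls of Fos (1.35), Fosb (1.71) and Egr1 (1.105) were lost. Klf6 did not pass the test. Without Space_R9del_D1 the members called higher were 2.

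The list of p53, the transcription factor that answers DNA damage, and its targets had 4 of 22 members called higher (18.2%, against 3.92% of all tested genes) and 4 lower (18.2%, against 9.24%). Phlda3, an inhibitor of Akt, fell from 313 and 387 CPM to 22.4 and 26.8 CPM (log2 fold change -3.83, standard error 0.20, edgeR adjusted p = 0.0019). Named after their values were seen, Gadd45a (-2.64), Bbc3 (-1.995) and Perp (-1.88) were the others that fell. Sesn2, which restrains mTORC1, rose from 144 and 151 CPM to 402 and 363 CPM. The kinase gene Plk2 was at 128 and 129 CPM on the ground and 383 and 205 CPM in space. Its call was lost without Space_R9del_D1 (0.67) and in the fit of all 8 libraries (1.145). The calls of Aen (1.03) and, named after its values were seen, Tnfrsf10b (1.20) were lost without Space_R9del_D5 (1.04 and 0.87), and that of Aen without Ground_R9del_D5 (0.48) or Space_R9del_D1 (0.82). With no term for the day the call of Aen was lost too (0.93). Mdm2, at 344 and 351 CPM on the ground and 816 and 493 CPM in space, and Ccng1 did not reach the call. Without Space_R9del_D1 the list held 2 members called higher.

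DNA repair genes were counted by pathway, beside 9.24% of all tested genes called lower and 3.92% higher. In nucleotide excision repair 2 of 23 were called lower (8.70%) and 0 higher. Rad23b, which steadies the damage sensor Xpc, fell from 404 and 425 CPM to 92.4 and 88.4 CPM (log2 fold change -2.20), and Xpa from 2.01 and 4.36 CPM to 0.697 and 0.723 CPM. The call of Xpa was lost without Ground_R9del_D5 (-1.49). Ddb1 and Gtf2h3 were not called, and without Ground_R9del_D1 1 member of the list was called higher, without Space_R9del_D5 2. In base excision repair 1 of 21 was called lower (4.76%), Ung, the uracil glycosylase, from 88.9 and 94.8 CPM to 25.7 and 33.2 CPM, and Fen1 was the 1 called higher (4.76%), while Parp1 and Apex1 were not called. In break sensing and end joining 3 of 19 were called lower (15.8%) and 0 higher. These were H2afx, Nbn of the Mre11 complex, which went from 62.5 and 66.5 CPM to 20.3 and 18 CPM, and the ubiquitin ligase gene Rnf168, from 66.9 and 77.0 CPM to 21.6 and 31.1 CPM. Rad50 and Xrcc5 were not called. In homologous recombination and Fanconi repair 1 of 27 was called (3.70% lower), Fance, which fell from 44.4 and 47.5 CPM to 8.23 and 7.47 CPM (log2 fold change -2.55), while Bard1 was not. Of 8 mismatch repair genes, Msh6 among them, 0 were called at the unadjusted threshold of edgeR's test. The checkpoint clamp and its ATR partners gave 1 call in 14 (7.14% higher), Atrip, the partner of ATR, at 5.30 and 3.89 CPM on the ground and 10.98 and 7.56 CPM in space, with 25.8% of its exon bases overlapping another gene. Its call was lost without Ground_R9del_D5 (0.82) or Space_R9del_D1 (0.72) and in the fit of all 8 libraries (1.03). Topbp1 and Chek2 were not called, and without Space_R9del_D1 1 member was called lower.

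Genes that remove reactive oxygen and genes that make it were counted apart. Of 26 antioxidant genes 3 were called lower (11.5%, against 9.24% of all tested genes) and 0 higher. Srxn1, which repairs oxidised peroxiredoxins, fell from 92.8 and 98.3 CPM to 12.1 and 15.6 CPM (log2 fold change -2.80). Gclm, the modifier subunit of the enzyme that starts glutathione synthesis, fell from 49.6 and 39.8 CPM to 22.4 and 7.85 CPM, and its call was lost without Ground_R9del_D1 (-1.37) or Space_R9del_D5 (-0.998). Gsr, glutathione reductase, lost its call without Ground_R9del_D5 (-0.56) or Space_R9del_D1 (-1.26). Prdx1, at 2535 and 2523 CPM on the ground and 2130 and 2569 CPM in space, and Sod1 were not called, and without Ground_R9del_D5 1 member was called higher. Of 14 genes that generate free radicals 2 were called higher (14.3%, against 3.92% of all tested genes) and 0 lower. They were the dual oxidases Duox1, at 1.53 and 1.41 CPM on the ground and 7.14 and 3.18 CPM in space, and Duox2, at 0.324 and 0.125 CPM against 1.47 and 0.430 CPM. Without Space_R9del_D1 both calls were lost (1.12 and 0.94), and that of Duox2 also without Ground_R9del_D5 (1.55). With DESeq2's Wald test (2.006) and in the fit of all 8 libraries (2) the call of Duox2 was lost too. Nos1 and Cyba were not called, and without Ground_R9del_D1 the members called higher were 4.

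Among stress proteins Hspb1, a small heat shock protein, fell from 222 and 271 CPM to 19.4 and 23.3 CPM (log2 fold change -3.53), with 55.6% of its 50-base stretches recurring in the genome, and was the only called member of 19 heat shock genes (5.26% lower, against 9.24% of all tested genes). The abundant chaperone genes Hsp90ab1 and Hspa8 were not called, and without Space_R9del_D1 1 member was called higher. Of 23 genes of the unfolded protein and integrated stress responses 2 were called higher (8.70%, against 3.92%) and 1 lower (4.35%, against 9.24%). Xbp1, a transcription factor of the unfolded protein response, fell from 252 and 283 CPM to 29.1 and 46.5 CPM, while Atf3 rose from 8.00 and 6.84 CPM to 24.9 and 19.7 CPM, and Sesn2 was the other that rose. The chaperone genes Hspa5 and Hsp90b1 were not called, and 2 members were called lower without Ground_R9del_D5 or Space_R9del_D5.

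Of 20 Yap and Tead genes, which take part in sensing force, Cyr61 and Lats1 were called higher (10%, against 3.92% of all tested genes) and Wwtr1 and Ctgf lower (10%, against 9.24%). Cyr61, a target of Yap, was at 33.7 and 41.0 CPM on the ground and 142 and 87.9 CPM in space (log2 fold change 1.59), and Wwtr1, which encodes the coactivator Taz, at 39.2 and 51.6 CPM against 16.5 and 20.3 CPM. Lats1, a kinase that restrains Yap, rose from 4.94 and 4.54 CPM to 12.5 and 11.4 CPM. Ctgf, another Yap target, had log2 ratios of -0.59 and -1.54, and its call was lost without Ground_R9del_D1 (-0.49), Ground_R9del_D5 (-1.18) or Space_R9del_D5 (-0.30). The Ctgf call was also lost with no term for the day (-0.89). Nf2 and Amotl2 were not called, and the members called higher were 4 without Ground_R9del_D1 or Space_R9del_D1. Of 25 integrin and focal adhesion genes 3 were called higher (12%, against 3.92% of all tested genes) and 1 lower (4%, against 9.24%). Itga9 rose from 5.17 and 3.64 CPM to 17.4 and 22.7 CPM, and Vcl, which encodes vinculin, from 16.5 and 10.3 CPM to 55.1 and 37.3 CPM, with 39.9% of the exon bases of Vcl overlapping another gene. Zyx, which encodes zyxin of the same adhesions, fell from 25.8 and 42.4 CPM to 10.2 and 10.1 CPM. The call of Src (1.10) was lost without Ground_R9del_D1 (0.91) or Space_R9del_D5 (0.98). Fn1 and Itgb1 were not called, and without Space_R9del_D1 5 members were called higher and 2 lower. Of 32 actin and tubulin genes, with Actb and Tuba1b the most abundant, 0 were called in either direction at the unadjusted threshold of edgeR's test. Those called higher were 5 without Ground_R9del_D1, 2 without Space_R9del_D5, with 1 called lower, and 1 without Ground_R9del_D5.

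Of 13 SR splicing factors 3 were called lower (23.1%, against 9.24% of all tested genes) and 0 higher. Srsf1 fell from 132 and 212 CPM to 19.1 and 18.1 CPM (log2 fold change -3.17), and Srsf6 from 294 and 272 CPM to 87.6 and 69.1 CPM. Srsf4 fell too, with 43.3% of its exon bases overlapping another gene, while Srsf3 and Srsf7 were not called. In tRNA splicing 2 of 10 were called lower (20%), both subunits of the tRNA splicing endonuclease. Tsen34 went from 66.4 and 59.9 CPM to 3.73 and 8.88 CPM, and Tsen54 from 60.4 and 67.0 CPM to 14.2 and 17.8 CPM. The ligase complex genes D10Wsu52e and Ddx1 were not called. Of 78 cytosolic ribosomal protein genes only Rps2 was called, as lower (1.28%), at 1176 and 1350 CPM on the ground and 318 and 537 CPM in space, and Rpl4 and Rps4x were not. Of the 50-base stretches of Rps2 37.5%, and of those of Tsen34 26.1%, recur in the genome. In cholesterol synthesis 1 of 21 was called (4.76% lower), Insig1, the retention protein that holds back the pathway, which fell from 57.0 and 67.2 CPM to 13.4 and 22.7 CPM, while Fdps was not called. In that list 2 were called lower without Ground_R9del_D5 or Space_R9del_D5, and 1 higher without Space_R9del_D1. Of 14 genes of antigen presentation, Canx and Calr the most abundant, 0 were called at the unadjusted threshold of edgeR's test, while 1 was called higher without Space_R9del_D5 and 1 each way without Space_R9del_D1.

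**Figure D4:**
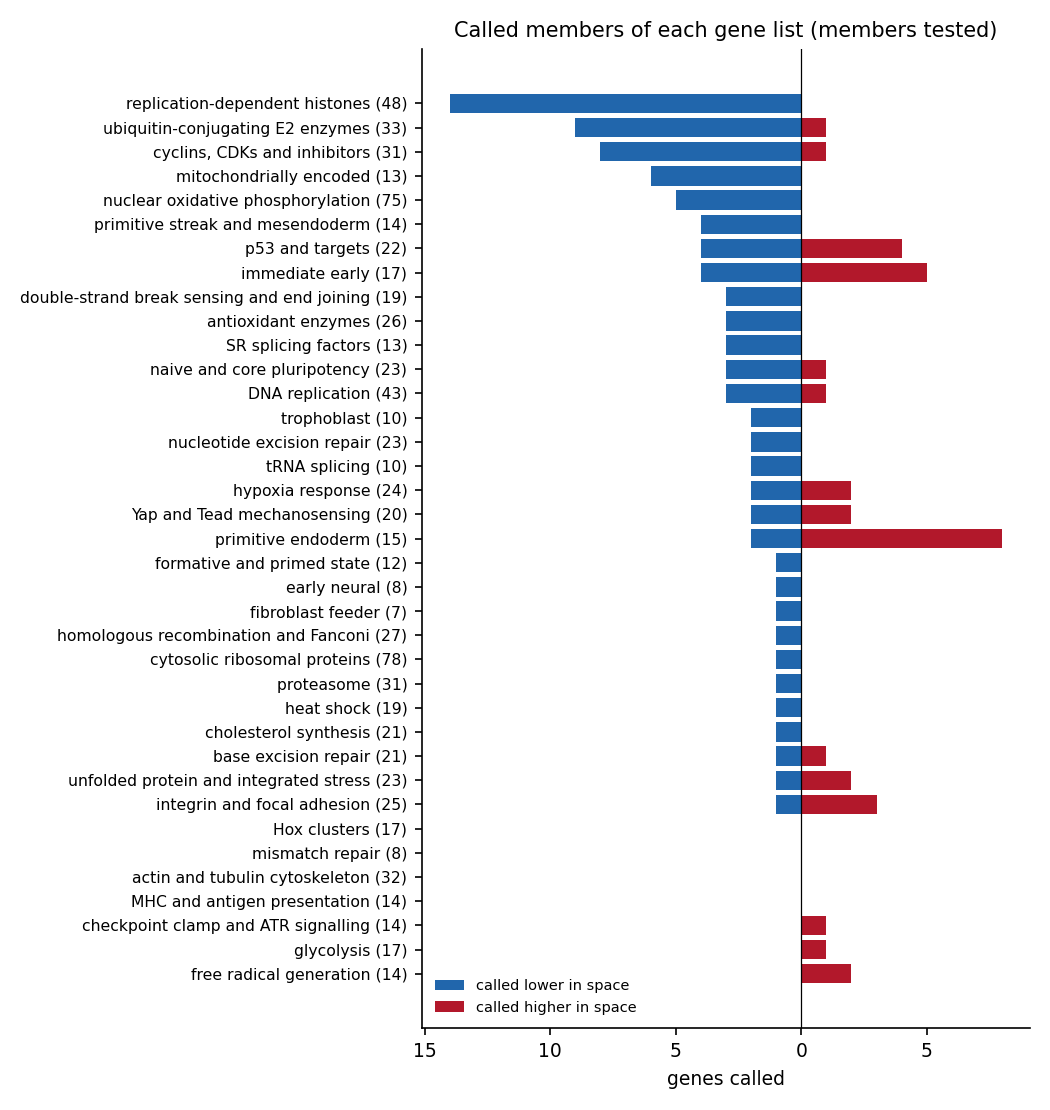
Number of members of each gene list called lower (blue, to the left) and higher (red, to the right) in R9del cells in space, by 2-fold or more with an unadjusted p under 0.05. The number of members tested stands in parentheses. Histones show 14 members called lower and primitive endoderm genes 8 called higher.

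The genes that agreed at both days in R9del were then followed in the R9wt libraries, which share no library with them. The space cultures of both genotypes did share a payload, so agreement between genotypes or days is not independent of it. An effect of that payload or of its handling cannot be told apart from the location. Of the genes at least 2-fold lower at both days, 1575 were tested in R9wt, and 982 of these (62.4%) were at least 2-fold lower at both days there too, against 7.61% of the 19798 genes tested in both genotypes. Seen from R9wt, these 982 made up 65.2% of its 1507 genes of that kind. Their median log2 ratio in R9wt was -1.94 at D1 and -1.95 at D5 over the 1575 genes. For the genes that rose the share was smaller, and the difference between the directions was not tested. They also had lower levels, with a median log2 CPM of -0.27 against 2.61 for the genes lower at both days. Of 515 tested genes at least 2-fold higher at both days in R9del, 86 (16.7%) were so in R9wt, against 3.596% of all genes, and these were 12.1% of the 712 genes of that kind in R9wt. Their median R9wt log2 ratio was 0.72 at D1 and 0.75 at D5. In the R9wt libraries alone edgeR's test called 1347 of 21109 genes lower (6.38%) and 504 higher (2.39%) at the unadjusted threshold, and 0 at an adjusted p under 0.05.

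**Figure D5:**
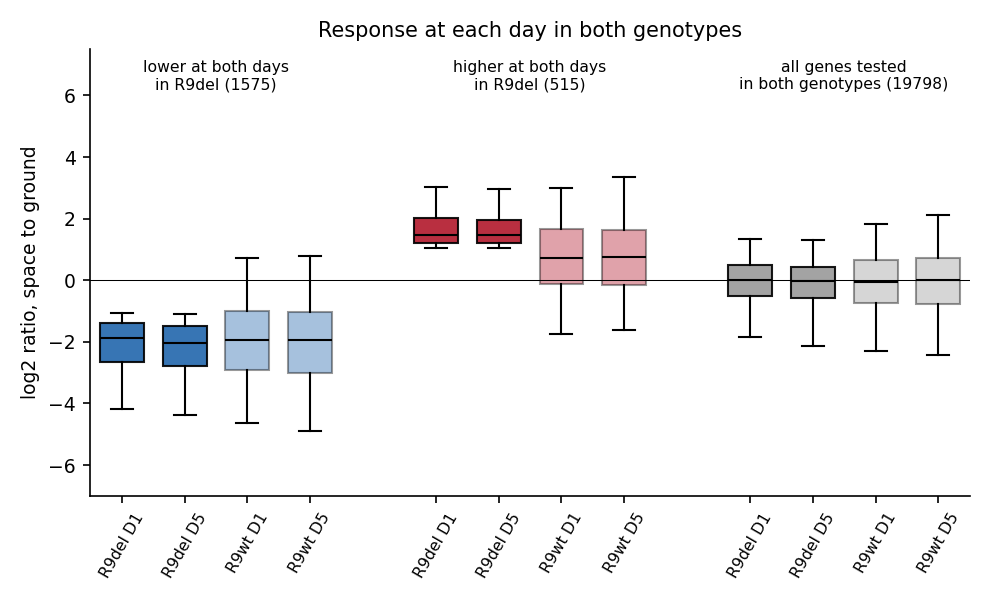
Log2 ratio of space to ground at D1 and D5 in R9del (dark) and R9wt (light), for the 1575 genes at least 2-fold lower and the 515 at least 2-fold higher at both days in R9del, and for all 19798 genes tested in both genotypes. Boxes span the quartiles with the median, and whiskers the 5th to 95th percentile. The selected R9del boxes lie beyond 1 and -1 by choice, and the R9wt medians are near -1.95 and 0.7.

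Whether a gene's response differed between the genotypes was tested in all 8 libraries. EdgeR's quasi-likelihood test of the difference gave 0 of 22561 genes with an adjusted p under 0.05, while 518 (2.3%) had an unadjusted p under 0.05, and DESeq2's Wald test gave 18 at an adjusted p under 0.05. The edgeR test therefore calls no gene particular to R9del cells, and the 18 rest on the Wald test alone. The D1 and D5 log2 ratios correlated at only 0.259 in R9wt, against 0.507 in R9del (Pearson r). With so few libraries and such disagreement between days the test could have missed differences. Its lack of calls does not show that the responses were equal. Of the genes higher at both days in R9del 8.83%, and of those lower 5.55%, had an unadjusted p under 0.05 for the difference. These genes were chosen by their R9del ratios, which also enter the difference. A share above 2.3% could come from that choice alone, so nothing is concluded from it. Pttg1ip was among the genes whose values stood apart. On a scale shared by all libraries it was at 22.8 CPM in Ground_R9del_D1 and 25.6 CPM in Ground_R9del_D5, and at 121 and 127 CPM in space, while the R9wt libraries held 139 and 172 CPM on the ground and 185 and 290 CPM in space. The R9del ground libraries were the low ones, and the space libraries of R9del came near the level of Ground_R9wt_D1. The adjusted p of this difference was 1.0 in edgeR's test, as for every gene.

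Genes that changed in opposite directions at the days show what the pairing on the day cannot average. Arl5b, a small GTPase of the Golgi, was at 34.9 CPM in Ground_R9del_D1 and 3.21 CPM in Ground_R9del_D5, and at 2.70 CPM in Space_R9del_D1 and 30.4 CPM in Space_R9del_D5. Gxylt1, a xylosyltransferase, showed the reverse order, with 6.45 and 24.3 CPM on the ground and 33.7 and 4.44 CPM in space. Both were chosen after their values were seen, and neither passed the test of location.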

How the data were processed

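RNA was extracted with TRIzol from cells fixed in RNAlater, and sequenced. By the submitters' processing notes, FastQC, TopHat2 (2.0.9), edgeR and the mm9 genome were used. The authors deposited whole-number counts per gene for 50686 Ensembl identifiers, without normalization. The counting program and the use of strand are not given in the sources used here, so overlapping genes, antisense genes and near-identical copies could have exchanged reads. Symbols and exons came from the GENCODE annotation of mm9, which matched 32722 identifiers.

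From these counts, genes kept by filterByExpr (minimum count 10) were scaled with TMM and tested with edgeR 4.0.16 (R 4.3.3), by the quasi-likelihood test with terms for day and location in the 4 R9del libraries. Log2 CPM used a prior count of 2. The labels pair each space library with the ground library of the same genotype and day, and the deviations of same-day libraries correlated at 0.281 across genes, a value that groups of 2 libraries make the same for each day. The difference between genotypes was fitted on all 8 libraries with day within genotype. Copies were counted as 50-base stretches of exons that occur again in the genome on either strand. Among called genes named without this share, it was 62.2% in mt-Nd4, 54.7% in Ero1l and 33.1% in Insig1. It was 31.85% in Tnfrsf10b and 28.1% in Uqcrb.

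The named genes are Rad9a, the predicted upstream regulators Mef2d and Fgf1 of the study, and the genes it measured by qRT-PCR. Genes named only in the study's supplement were not added on that ground. Further named genes are the 10 higher and 10 lower with the largest fold change among those called, at least 2-fold changed at both days and with a mean log2 CPM of 4 or more. From each list came up to 4 called and up to 2 other members with the highest mean CPM. Others are stated to be chosen after their values were seen. The members, lists and rules were chosen with earlier results of these data known. Alternatives were DESeq2's size factors, library size alone, no filter, DESeq2's Wald test (1.42.0), all 8 libraries, no term for day, thinned libraries, another prior count and each library left out.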

Additional observations from a re-analysis of the deposited data

Results flagged for a closer look

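For 3 of the called genes named in the report, both days went one way in R9del cells and the other way in R9wt cells. The difference was not established for any of them, since each had an adjusted p of 1.0 in edgeR's test of the difference. Lrrc8a had a log2 fold change of -8.36 in R9del, and log2 ratios of 5.97 at D1 and 0.74 at D5 in R9wt. Its counts were 97 in Ground_R9wt_D1, 3050 in Ground_R9wt_D5, 4700 in Space_R9wt_D1 and 3462 in Space_R9wt_D5, so the libraries with few reads were Ground_R9wt_D1 and both R9del space libraries. Acta2 had a log2 fold change of -1.34 in R9del and log2 ratios of 0.63 and 1.86 in R9wt. Nr4a1 had a log2 fold change of 1.03 in R9del and log2 ratios of -0.036 and -0.31 in R9wt.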

How the results depend on the processing

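The more numerous genes were those lower in space under every alternative tried. At the unadjusted threshold the counts of higher and lower genes stayed within 1.5 times those of the report, except for 444 higher genes in the fit of all 8 libraries. Similar counts did not always hold the same genes. Of the genes called higher in the report, 51.5% were called too in the fit of all 8 libraries and 72.9% with no term for the day. Of those called lower, 77.5% and 90.5% were, in turn. With each library left out there were 687 to 796 genes higher and 1558 to 2150 lower. The adjusted counts moved most. Higher genes became 111 with no filter, 439 with DESeq2's Wald test, 4 in the fit of all 8 libraries, 87 with no term for the day, 290 in thinned libraries and 9 to 79 with a library left out. Lower genes became 279 in the fit of all 8 libraries and 272 to 584 with a library left out. Genes higher at both days became 1030 with no filter and 97 at a mean of at least 10 CPM, and genes lower at both days 730 at that mean. Fewer samples or more or fewer genes tested enter by construction, and the cause was not tested otherwise. The difference between genotypes gave 18 genes with DESeq2's Wald test in place of 0. DESeq2's size factors moved the median of all genes by 0.019 on the log2 scale.

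Without the term for the day, the block that pairs the libraries, 646 genes were called higher and 1787 lower, and in R9wt 594 and 1485. Of 122 called genes named in the report, 81 kept their call under every alternative and 41 lost it in at least 1, 23 of them without Space_R9del_D5 and 15 in the fit of all 8 libraries. Of these 122, Cubn alone was reversed, at -0.057 without Space_R9del_D5, and ranged from -0.057 to 2.68 with a library left out. Of 814 list counts 84 moved by over 1.5 times. With a library left out, the lone library of its group is assumed to vary like the other group. With 1 library per condition, no alternative replaces a repeated culture.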
